A study of Homo sapiens with 28 samples.

Results

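H3K27ac peak lists of SW872 cells that carry TC in the file name were set against those that carry CAMTA1. The members are 4 of the 14 peak lists of the series, 2 on each side, chosen by the file name alone. Per the study's methods, TC stands for TAZ-CAMTA1, the fusion protein found in most epithelioid hemangioendotheliomas, and CAMTA1 for the full-length protein. The labels of the same 4 libraries give other constructs. They call both TC-named libraries CAMTA1 (replicates 1 and 2) and both CAMTA1-named libraries empty vector (replicates 1 and 2). The peak names inside each list repeat the file name. Read by file names the comparison is TAZ-CAMTA1 against CAMTA1, and read by labels it is CAMTA1 against an empty vector. The sides are called TC-named and CAMTA1-named throughout, which takes no position on which naming is right.

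SW872 is an established human liposarcoma line. Every library came from cells stably transduced with a neomycin-resistance retroviral vector, empty or carrying a Flag-tagged construct, and kept as a drug-selected pool. The design describes biological duplicates. The labels state that cells with CAMTA1 were collected at sub-confluence and all others after reaching 90% confluence, while the study's ChIP methods give 90% for all constructs. If the labels hold, 1 side of this comparison came from sparser cells under either naming, and the construct and the cell density cannot be told apart.

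H3K27ac, acetylated lysine of histone H3, marks promoters and enhancers in use, so a peak shows where a library held more of the mark than its background. TAZ is a transcriptional coactivator that reaches DNA through TEAD transcription factors and is restrained by the Hippo pathway, for example in dense cultures. CAMTA1 is a transcription activator, best known in the nervous system, whose family binds DNA through a CG-1 domain at elements with a CGCG core. The fusion joins the amino-terminal end of TAZ to the carboxy-terminal part of CAMTA1.

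The TC-named lists held 47974 and 31280 peaks and the CAMTA1-named lists 42841 and 49855. The sides did not separate by peak number, with a log2 difference of -0.25 and p = 0.667 in an exact two-sided permutation test over 6 splits. With 2 lists a side the smallest p this test can give is 0.333. To compare lists of equal length, every list was shortened to its 31280 best peaks by −log10 p, the length of the shortest, and peaks were ranked from 1, the best. The last peak kept had a −log10 p of 5.65 in TC-named replicate 1, 3.33 in TC-named replicate 2, 5.48 in CAMTA1-named replicate 1 and 5.97 in CAMTA1-named replicate 2. The first peak left out had the same value in the 3 lists that were shortened, so peaks tied there were ordered by fold enrichment. TC-named replicate 2 was kept whole and reaches weaker peaks. Its kept peaks were also the narrowest, with a median width of 656 bp against 1014 to 1247 bp in the other lists. Read totals were not used here.

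Merging overlapping peaks of the 4 lists gave 42296 regions. All 4 lists shared 16056 of them (37.96%), and 16397 (38.8%) belonged to a single list. Both TC-named lists and neither CAMTA1-named list held 924 regions (2.18% of all regions). Both CAMTA1-named lists and neither TC-named list held 1624 regions (3.84%). The Jaccard index, the bases covered by both lists divided by those covered by either, was 0.451 between the TC-named lists, 0.606 between the CAMTA1-named lists and 0.439 to 0.585 between lists of different sides. The TC-named lists were therefore no more alike than lists of different sides. The mean index within sides exceeded that between sides by 0.0128, less than the SD of 0.0716 among the 4 values between sides. Such exclusive regions are few beside those that single lists did not share with their own replicate.

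**Figure D1:**
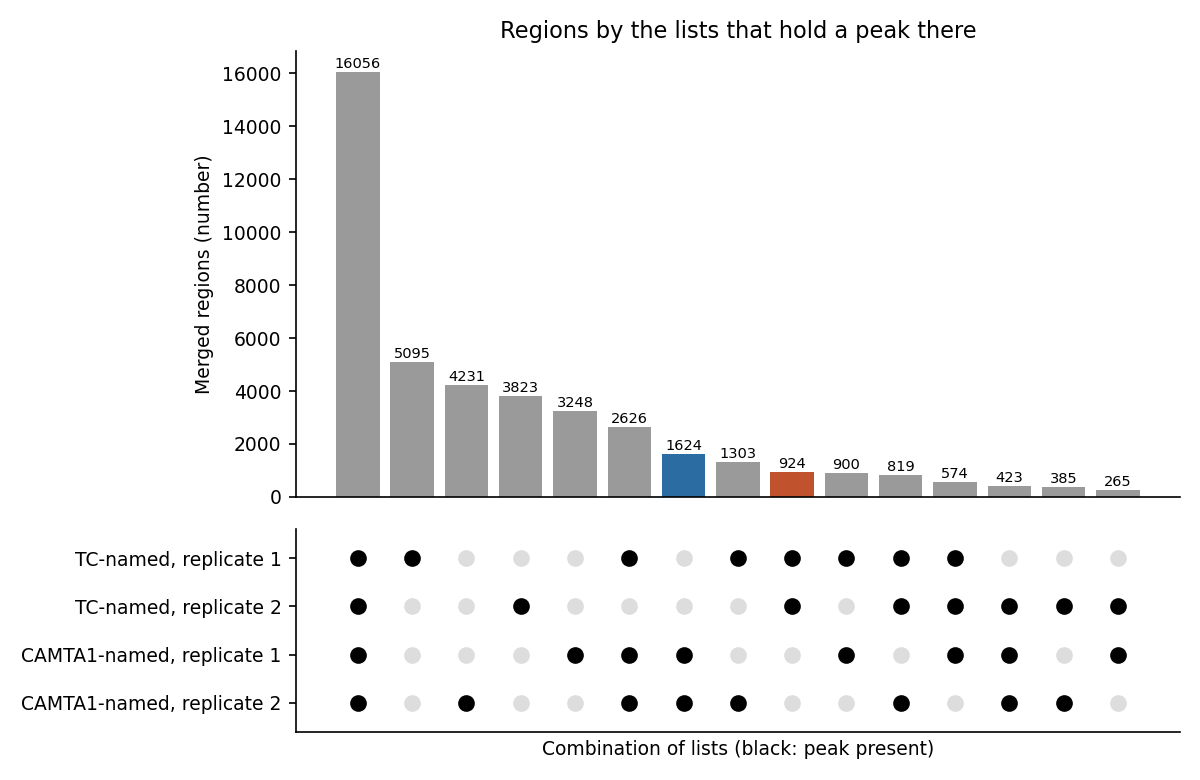
Number of merged regions (y axis) for each combination of the 4 lists (black points below mark the lists with a peak). The 924 regions in both TC-named lists alone (orange) and the 1624 in both CAMTA1-named lists alone (blue) are smaller groups than the 3248 to 5095 regions that single lists held.

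The exclusive regions were mostly weak peaks. Their median width was 969 bp on the TC-named side and 1011 bp on the CAMTA1-named side. Regions in all 4 lists had 2668 bp, but they merge the peaks of more lists and are wider for that alone. Single kept peaks had median widths of 656 to 1247 bp in the 4 lists. The rank in the weaker list of the side had a median of 26055 for TC-named and 25333 for CAMTA1-named exclusive regions. Many also had a peak lower down in the other side's full lists. Of the 924 TC-named regions, 402 (43.5%) had no peak anywhere in either CAMTA1-named list, and of the 1624 CAMTA1-named regions 935 (57.6%) had none in either TC-named list.

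The best-supported exclusive regions differed in rank between the sides. The CAMTA1-named regions began at chr1:210547567-210547861 (GRCh37, as all coordinates below unless stated), a single 295-bp interval ranked 4103 and 3575 with fold enrichments of 12.4 and 14.4. No peak lay there in either full TC-named list. The next were chr11:129729366-129734202, at a TAZ4SA site beside TMEM45B, ranked 5288 and 5818, and chr20:8994697-8996199, at a site beside PLCB4, ranked 6295 and 6010. PLCB4 encodes a phospholipase C of the G protein pathway. The remaining 2 of the first 5 were chr1:179131784-179133594, ranked 6254 and 7140, and chr1:30446344-30447147, ranked 7610 and 7135. All 5 also had a peak in at least 6 of the 10 other lists of the series.

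The TC-named regions began lower. The first 5 by the weaker list were chr3:48720131-48722233 (ranks 10738 and 10819), chr5:148822336-148823054 (11098 and 11556), chrX:7050739-7052052 (11690 and 7849), chr2:216635765-216638561 (12097 and 12192) and chr2:234465126-234466601 (12685 and 10566). None overlaps a site with a gene name. In 4 of the 5, at least 1 full CAMTA1-named list had a peak at a rank between 33160 and 48376, and the region on chromosome 2 from 216635765 had none.

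Almost every exclusive region recurred in other lists of the series. Only 8 TC-named and 3 CAMTA1-named exclusive regions had no peak in any of the 10 other lists. Where those lists are cut to their 20000 best peaks, which leaves out the short YT-named replicate 1, shares of both sets were found in each list. The CAMTA1-named regions were found in 55.7% and 43.7% of cases in the YAP5SA-named lists (labelled YAP_TFE3) and in 35.6% and 49.9% in the TAZ4SA-named lists (labelled TAZ_CAMTA1). The TC-named regions were found there in 13.9%, 12.9%, 6.39% and 14.2%. YAP5SA and TAZ4SA are forms of YAP and TAZ that escape Hippo inhibition. The order was the other way round in the EV-named lists (labelled TAZ4SA), which held 57.4% and 43.3% of the TC-named and 35.6% and 34.0% of the CAMTA1-named regions. In the TFE3-named lists (labelled YAP5SA) the shares were 25.8% and 14.7% of the TC-named and 15.9% and 17.4% of the CAMTA1-named regions. YT-named replicate 2 (labelled TFE3) held 23.4% and 12.8%. These shares describe the lists, and the difference between them was not tested.

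**Figure D2:**
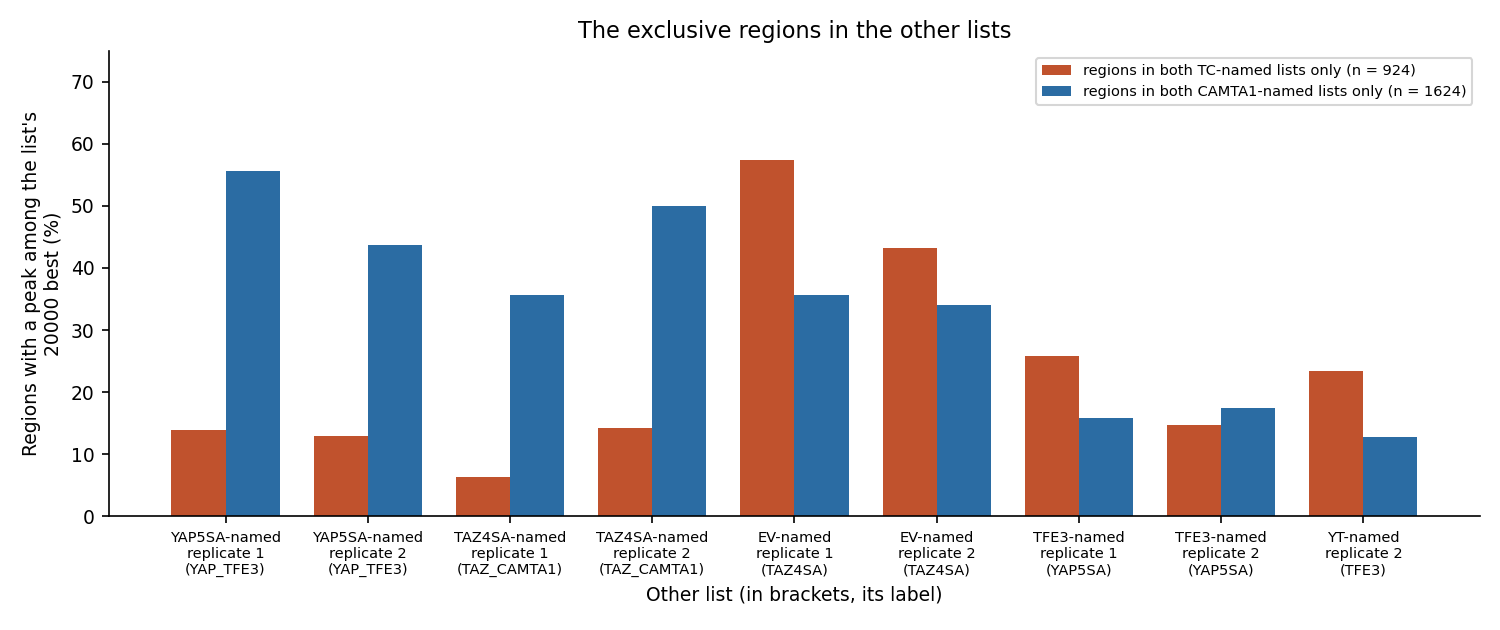
Share of exclusive regions (y axis, %) with a peak among the 20000 best of each other list (x axis, by name in the file, its label in brackets), for the 924 regions in both TC-named lists alone (orange) and the 1624 in both CAMTA1-named lists alone (blue). The 4 YAP5SA- and TAZ4SA-named lists held 35.6% to 55.7% of the blue and 6.39% to 14.2% of the orange regions.

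The regions shared by all 4 lists mostly kept their rank. A rank shift was taken as the mean log2 rank in the CAMTA1-named lists minus that in the TC-named lists, so that positive values mean a higher place in the TC-named lists. Its median over the 16056 regions was 0.01, with 5th and 95th percentiles of -1.08 and 1.01. The median absolute difference in log2 rank was 0.50 between the TC-named replicates, 0.42 between the CAMTA1-named replicates and 0.49 to 0.57 between lists of different sides, so the sides differed little more than replicates did. A region was counted as shifted where both ranks of a side were better than both of the other and the shift was at least 1, a 2-fold change in rank. This held for 754 regions (4.70%) in favour of the TC-named lists and for 887 (5.52%) in favour of the CAMTA1-named lists.

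The largest shifts among shared regions were of strong peaks. In favour of the TC-named lists these were chr7:5458492-5466675, ranked 75 and 55 against 463 and 679, chr3:149371460-149378362, ranked 157 and 49 against 656 and 763, and chr5:38843091-38849233. The last overlaps TAZ-CAMTA1 and YAP-TFE3 sites beside OSMR, the oncostatin M receptor. It ranked 65 and 20 in the TC-named lists and 372 and 222 in the CAMTA1-named lists, a shift of 2.99, with SDs of log2 rank of 1.20 and 0.53 within the sides. The next, chr5:102453421-102457826 and chr20:522613-524954, had shifts of 2.77 and 2.70. All 5 regions had a peak in each of the 10 other lists. Other OSMR site regions, chr5:38763866-38767106 and chr5:38783601-38786409, were in all 4 lists with shifts of -0.05 and -0.96, and neither was counted as shifted.

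In the other direction the largest shift was -3.94, at chr7:100776466-100785392, which ranked 3526 and 3756 in the TC-named lists and 281 and 201 in the CAMTA1-named lists. Fold enrichment at the best peak there was 6.66 and 7.44 against 18.6 and 27.9. It was followed by chr5:55637617-55657966 at a YAP5SA site beside ANKRD55 (shift -3.77) and by chr11:9632590-9637510 (-3.68). The region beside MICAL2, chr11:12092438-12114782, ranked 820 and 3527 against 117 and 254 (-3.30). MICAL2 is an oxidising enzyme of actin. The region beside TNFRSF12A, the receptor of the cytokine TWEAK, chr16:3069449-3074456, ranked 785 and 3299 against 230 and 132 (-3.21). In the last 2, TC-named replicate 2 lay well below replicate 1.

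To ask whether the lists differ where the named proteins bind, regions were matched to Flag ChIP sites beside differentially expressed genes from the study, by position only. The study chose these sites on Flag ChIP and RNA libraries of the same constructs in SW872 cells, so they are not independent of the constructs. There were 39 CAMTA1 sites beside 39 genes, 281 TAZ-CAMTA1 sites beside 207 genes and 321 TAZ4SA sites beside 233 genes. A region takes the gene name of the site it overlaps, which is the nearest gene in the study's annotation.

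CAMTA1 sites lay higher in the CAMTA1-named lists. They overlapped 31 regions, of which 4 (12.9%) were in both CAMTA1-named lists alone, beside 3.84% of all regions, and 0 in the TC-named lists alone. Of the 22 regions with a peak in all 4 lists, 6 (27.3%) were shifted to the CAMTA1-named lists, beside 5.52% of all such regions, and 0 to the TC-named lists. The median shift was -0.73 against 0.01 over all shared regions, and it was below 0 in 20 of the 22. Taken site by site, both CAMTA1-named ranks were better than both TC-named ranks at 20 of 39 sites, counting a missing peak as last, and the reverse held at 0. Of all regions in all 4 lists, both CAMTA1-named ranks were better in 20.2% and both TC-named ranks in 20.7%. Those shares leave out regions with a missing peak. A peak lay in none of the 4 lists at 8 sites.

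The share of CAMTA1 sites with a peak was 59.0% in TC-named replicate 1 (95% Wilson interval 43.4% to 72.9%) and 53.8% in TC-named replicate 2 (38.6% to 68.4%). It was 74.4% in CAMTA1-named replicate 1 (58.9% to 85.4%) and 76.9% in CAMTA1-named replicate 2 (61.7% to 87.4%). The intervals cover counting error only, and those of different sides overlap. The sides did not overlap, and the difference of -19.2 percentage points gave p = 0.333, the smallest an exact two-sided permutation test of 2 lists against 2 allows. It cannot pass 0.05 in this design.

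**Figure D3:**
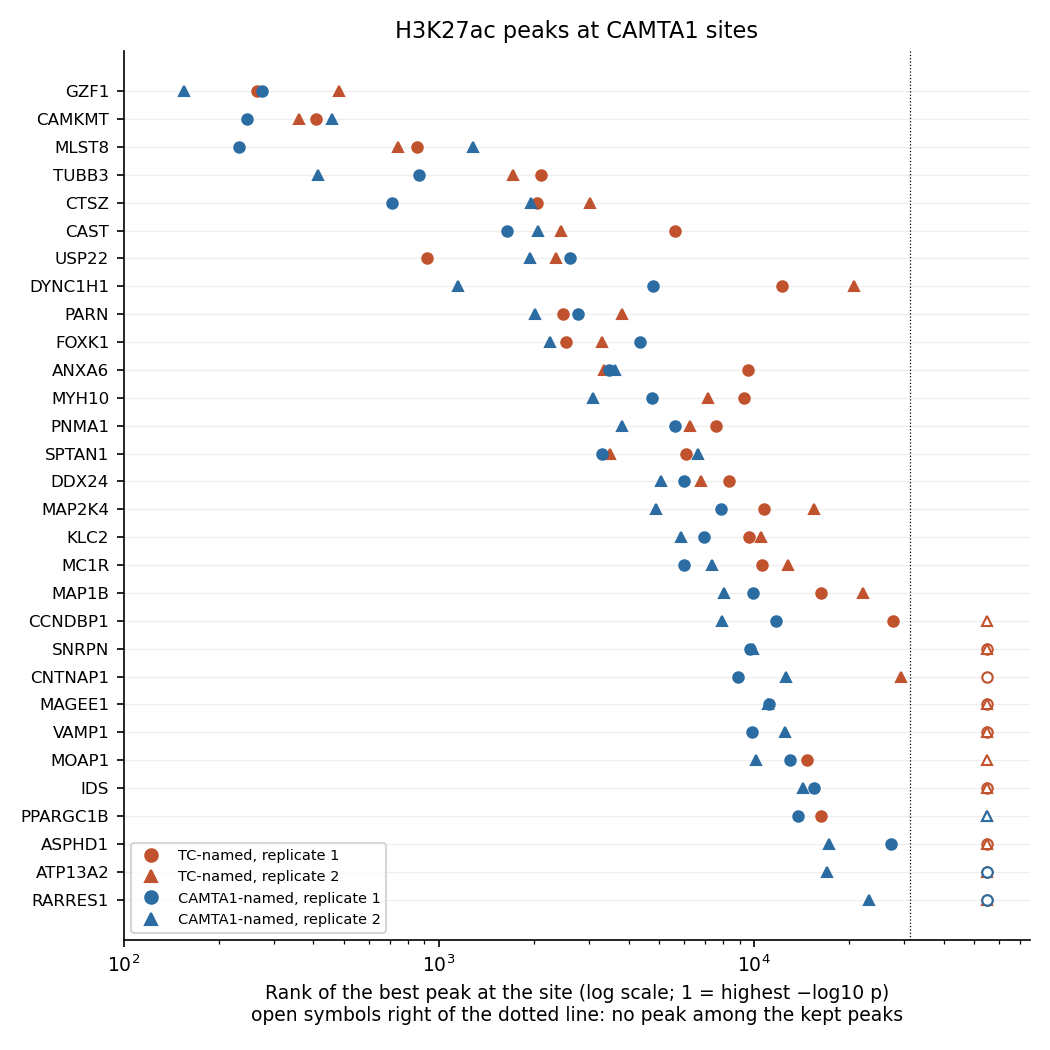
Rank of the best peak (x axis, log scale, 1 being the highest −log10 p) at 30 of the 31 CAMTA1 sites with a peak in at least 1 of the 4 lists, by gene (y axis). TC-named lists are orange and CAMTA1-named lists blue, with circles for replicate 1 and triangles for replicate 2, and open symbols mark a list without a peak among its 31280. At 19 of these sites both blue symbols lie left of both orange ones, beside 20.2% of all regions with a peak in all 4 lists.

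The 4 exclusive regions were beside VAMP1, ASPHD1, MAGEE1 and IDS. VAMP1, a synaptic vesicle protein of the SNARE fusion machinery, had its region at chr12:6579067-6581089, ranked 9891 and 12501 in the CAMTA1-named lists. The full list of TC-named replicate 1 had a peak there at rank 38677 and that of replicate 2 had none. IDS, a lysosomal sulfatase, had ranks of 15541 and 14310 at chrX:148586292-148587133 and no peak in either full TC-named list. ASPHD1 at chr16:29911494-29912540 was weaker, with ranks of 27238 and 17260, and 34632 in the full list of TC-named replicate 1.

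The MAGEE1 region set itself apart in presence. MAGEE1 is a member of the MAGE family. Its region, chrX:75648117-75649007, ranked 11137 and 11094 in the CAMTA1-named lists, with fold enrichments of 7.40 and 8.28. Neither full TC-named list had a peak at the site, nor did any of the 10 other lists, whichever their length. It was the only 1 of the 39 CAMTA1 sites with a peak in both CAMTA1-named lists and in none of the 12 others. At the SNRPN site, chr15:25199719-25200233, ranked 9740 and 9943, the other 12 lists had 1 peak, in EV-named replicate 1 at rank 13647. The merged region around it, chr15:25199569-25202274, nevertheless had a peak in all 4 lists (16973 and 21799 in the TC-named lists, shift -0.97, short of the limit) and in 5 of the 10 other lists. SNRPN is an imprinted gene for a splicing protein.

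Promoter letters of these genes are shown because the CAMTA family reads a CGCG core. The 250 bases before the start were taken from RefSeq by gene symbol, on GRCh38.p14. The lists are on another build, so these windows were not placed on the peaks. Of the 4 genes 3 matched by symbol, all but ASPHD1. CGCG, which reads the same on both strands, is in capitals, and each sequence runs 5′ to 3′ on the gene's strand.

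MAGEE1, chrX:76427460-76427709, plus strand: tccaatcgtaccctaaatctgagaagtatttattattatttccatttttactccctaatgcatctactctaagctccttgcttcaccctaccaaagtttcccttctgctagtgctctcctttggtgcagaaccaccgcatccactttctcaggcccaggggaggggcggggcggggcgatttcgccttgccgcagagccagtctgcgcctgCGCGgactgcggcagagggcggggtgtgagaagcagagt

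VAMP1, chr12:6470678-6470927, minus strand: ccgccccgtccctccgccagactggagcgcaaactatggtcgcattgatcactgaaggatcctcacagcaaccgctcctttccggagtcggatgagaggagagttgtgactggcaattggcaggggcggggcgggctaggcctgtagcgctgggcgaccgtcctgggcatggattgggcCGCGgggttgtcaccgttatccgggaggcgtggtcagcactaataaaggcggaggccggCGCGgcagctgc

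IDS, chrX:149505307-149505556, minus strand: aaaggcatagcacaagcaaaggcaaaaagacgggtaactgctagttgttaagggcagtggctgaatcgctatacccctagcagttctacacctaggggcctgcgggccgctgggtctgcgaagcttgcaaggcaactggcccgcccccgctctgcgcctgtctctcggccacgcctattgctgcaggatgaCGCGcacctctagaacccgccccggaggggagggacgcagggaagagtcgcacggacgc

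MAGEE1 and IDS held 1 match each and VAMP1 held 2. Of all 35116 promoter windows 46.4% held the letters at least once. Of the 55 windows for the 33 CAMTA1-site genes that matched, 37 (67.3%) did. A match describes the letters and is no evidence of binding.

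In all, 6 CAMTA1-site regions held by all 4 lists were shifted to the CAMTA1-named side, of which 5 are described. TUBB3, a neuronal beta-tubulin, ranked 2108 and 1722 in the TC-named lists and 864 and 415 in the CAMTA1-named lists (shift -1.67, SDs of log2 rank 0.21 and 0.75). CTSZ, a lysosomal cathepsin, ranked 2042 and 3011 against 710 and 752 over its 10829-bp region (-1.76). At the CTSZ site itself the CAMTA1-named ranks were 710 and 1959, close to the 2042 of TC-named replicate 1. The ranks of both regions did not overlap between the sides, as the count requires.

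MAP1B, a microtubule-associated protein of growing axons, ranked 16368 and 22104 in the TC-named lists and 9907 and 8033 in the CAMTA1-named lists (shift -1.09). MAP2K4, a kinase of the JNK pathway, ranked 10722 and 15559 against 7865 and 4877 (-1.06). CAST, the inhibitor of calpain, ranked 5599 and 2448 against 1646 and 2058 (-1.01), just past the 2-fold limit. Leaving out TC-named replicate 1 takes CAST below that limit, and leaving out TC-named replicate 2 does so for MAP1B and MAP2K4. At DYNC1H1, the heavy chain of cytoplasmic dynein, the peaks at the site itself ranked 12242 and 20780 against 4781 and 1148, while its merged region ranked 3817 and 4776 against 4067 and 1148, which overlap, and was not counted as shifted (-0.98).

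The remaining CAMTA1-site regions did not pass. KLC2, a kinesin light chain, ranked 9611 and 10506 in the TC-named lists and 6962 and 5881 in the CAMTA1-named lists (shift -0.65). PNMA1 ranked 7562 and 6252 against 5617 and 3802 (-0.57). USP22, a deubiquitinase of the SAGA complex, and FOXK1, a forkhead factor, were the 2 regions with a positive shift, 0.62 and 0.11. Of the 14 genes listed as neuronal and microtubule genes at CAMTA1 sites, 2 of 10 regions (VAMP1 and MAGEE1, beside 3.84% of all regions) were in the CAMTA1-named lists alone, 2 of 7 shared regions (28.6%, beside 5.52% of all shared regions) were shifted to that side, and 0 went the other way. Among the 7 is a second MAP1B region at a site of another construct, YAP5SA, with a shift of 0.90. That list was drawn up from the study's CAMTA1 sites and is not independent of them.

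The site inside the CAMTA1 gene, chr1:7740313-7740827, had no peak in the kept part of any of the 4 lists. In the full lists of the series it had a peak in CAMTA1-named replicate 2 at rank 37413 and in the EV-named lists at ranks 94350 and 25587.

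**Figure D4:**
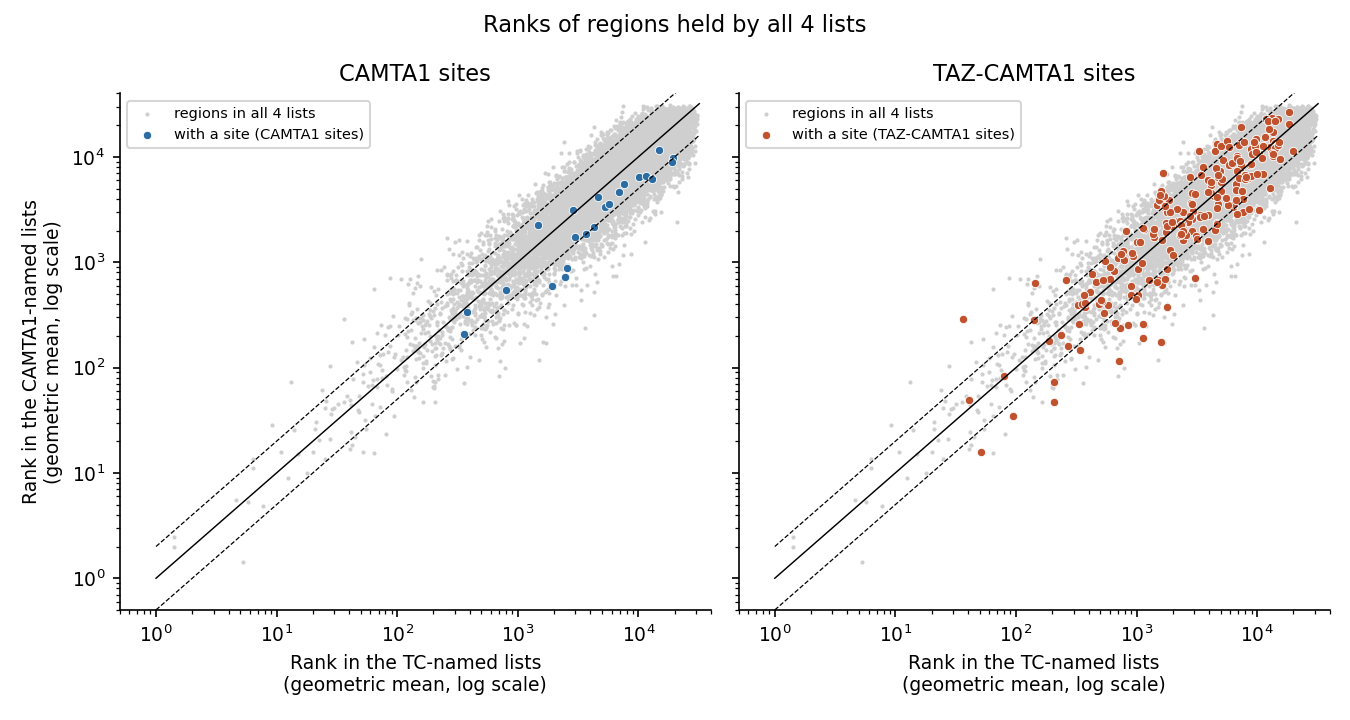
Rank in the TC-named lists (x axis) against rank in the CAMTA1-named lists (y axis), as the geometric mean of the 2 lists on log scales, for the 16056 regions in all 4 lists (grey). The solid line marks equal ranks and the dashed lines a 2-fold difference. Of the 22 regions with a CAMTA1 site (left, blue) 20 lie below the solid line, while the 222 with a TAZ-CAMTA1 site (right, orange) lie on both sides of it, 116 above and 106 below.

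TAZ-CAMTA1 sites did not favour the TC-named lists. They overlapped 245 regions, of which 222 had a peak in all 4 lists. In the TC-named lists alone were 5 (2.04%, beside 2.18% of all regions) and in the CAMTA1-named lists alone 2 (0.816%, beside 3.84%). Of the 222 shared regions 22 (9.91%, beside 4.70%) were shifted to the TC-named lists and 25 (11.3%, beside 5.52%) to the CAMTA1-named lists. The median shift was 0.07. Both directions were more frequent than over all shared regions, and sites of YAP5SA (9.13% and 11.98% of 526 shared regions) and YAP-TFE3 (12.4% and 10.2% of 137) had like shares.

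The share of TAZ-CAMTA1 sites with a peak was 91.8% and 86.8% in the TC-named lists (Wilson intervals 88.0% to 94.5% and 82.4% to 90.3%) and 84.7% and 86.8% in the CAMTA1-named lists (80.02% to 88.4% and 82.4% to 90.3%). The difference of 3.56 percentage points gave p = 0.667 in the exact two-sided permutation test over 6 splits. It was 1.07 points without TC-named replicate 1 and 6.05 without TC-named replicate 2.

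The 5 regions with a TAZ-CAMTA1 site in the TC-named lists alone were beside TEAD1, CDH3, NXN, WTIP and CXADR. TEAD1, a DNA-binding partner of TAZ, had this weak region at chr11:12914803-12915638, ranked 30916 and 21035, and neither full CAMTA1-named list had a peak there. Its 3 other site regions were in all 4 lists with shifts of 0.82, 0.36 and -0.28. WTIP, an Ajuba-family adaptor that restrains LATS kinases, ranked 17242 and 16552 at chr19:34971825-34972454. CDH3, P-cadherin, ranked 18008 and 15933 at chr16:68679063-68680658. CXADR, the cell adhesion protein that serves as the coxsackievirus and adenovirus receptor, ranked 9450 and 20682. The regions of CDH3, WTIP and CXADR had a peak lower down in a full CAMTA1-named list, at ranks 40280, 38284 and 44168. NXN, a thioredoxin-like oxidoreductase, ranked 18607 and 21953, and a second NXN region in all 4 lists was shifted the same way (4937 and 4074 against 12021 and 10631).

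Among shared regions with a TAZ-CAMTA1 site, those shifted most to the TC-named lists after OSMR were beside NUDCD2 (172 and 122 against 752 and 540, shift 2.14), SYDE2 (3930 and 711 against 7858 and 6382, shift 2.08), EDNRB, the endothelin B receptor (3697 and 2881 against 9859 and 12993, shift 1.79), SYNPO, an actin-bundling protein (2123 and 1185 against 7597 and 2920, shift 1.57), and PARVA, an adaptor of integrin-linked kinase (4223 and 5201 against 17131 and 10200, shift 1.496). SYDE2 rests most on TC-named replicate 2. The ranks of all these regions do not overlap between the sides, as the count requires. Smaller shifts were found beside WNT5B (1.38), ADAMTS12 (1.35), GADD45B (1.26), CSF1 (1.24) and AMOTL2 (1.08), an angiomotin that binds YAP and TAZ. Other site regions of PARVA, ADAMTS12 and AMOTL2 did not pass.

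The regions with a TAZ-CAMTA1 site shifted most to the CAMTA1-named lists after TNFRSF12A were beside KIF23, a kinesin of cytokinesis (541 and 954 against 73 and 181, shift -2.64), and TAX1BP3, a PDZ protein (1161 and 1084 against 201 and 179, shift -2.56). PIM1, a serine/threonine kinase, ranked 975 and 3238 against 257 and 553 (-2.24). TGFBI, a matrix protein induced by TGF-beta, ranked 173 and 248 against 49 and 46 over a 36217-bp region (-2.13). PDCD1LG2, a ligand of PD-1, ranked 1115 and 1150 against 320 and 213 (-2.12). For TAX1BP3, TGFBI and PDCD1LG2 the ranks within a side lay close together and far from the other side. FLNA, filamin A, was among the strongest peaks of every list (30 and 89 against 9 and 28) and shifted by -1.70, with SDs of log2 rank of 1.11 and 1.16.

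Where regions with TAZ4SA sites were exclusive or shifted, most were so on the CAMTA1-named side. These sites overlapped 250 regions, of which 17 (6.80%, beside 3.84%) were in the CAMTA1-named lists alone and 3 (1.20%, beside 2.18%) in the TC-named lists alone. Of 185 shared regions 42 (22.7%, beside 5.52%) were shifted to the CAMTA1-named and 5 (2.70%, beside 4.70%) to the TC-named lists, with a median shift of -0.31. The share of TAZ4SA sites with a peak was 68.2% and 57.6% in the TC-named lists and 69.5% and 75.1% in the CAMTA1-named lists. The difference of -9.35 percentage points gave p = 0.333 (exact two-sided permutation test), again the smallest possible, and TC-named replicate 1 lay close to CAMTA1-named replicate 1. It was -14.6 points without TC-named replicate 1 and -4.05 without TC-named replicate 2.

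The TAZ4SA sites that TAZ-CAMTA1 sites did not share carried most of this. In the 206 regions with a TAZ4SA but no TAZ-CAMTA1 site, 17 were in the CAMTA1-named lists alone (beside 3.84% of all regions) and 1 in the TC-named lists alone (beside 2.18%). Of 143 shared ones 34 (23.8%, beside 5.52% of all shared regions) were shifted to the CAMTA1-named and 1 (0.699%, beside 4.70%) to the TC-named side. In the 44 regions with both sites, 8 of 42 shared ones (19.0%) were shifted to the CAMTA1-named and 4 (9.52%) to the TC-named side. In the 201 with a TAZ-CAMTA1 site alone, 17 of 180 shared ones (9.44%) went to the CAMTA1-named and 18 (10%) to the TC-named side, both above the shares of all shared regions. The difference between these groups of sites was not tested.

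Genes of the Hippo pathway and known TAZ and YAP targets were followed by a list of their own. Of 22 such genes, all with a site, 32 regions were followed. The 2 in the TC-named lists alone (beside 2.18% of all regions) lay near TEAD1 and WTIP, and 0 were in the CAMTA1-named lists alone (beside 3.84%). Of 27 shared regions 2 (7.41%, against 4.70% of all shared regions) were shifted to the TC-named lists, near AMOTL2 and VGLL4, and 5 (18.5%, against 5.52%) to the CAMTA1-named lists, near NF2, ASAP1, CRIM1, AMOTL1 and AXL. The median shift was 0.02. NF2, the upstream Hippo regulator merlin, ranked 9160 and 8894 in the TC-named lists and 2155 and 2420 in the CAMTA1-named lists (-1.98). VGLL4, a competitor of YAP for TEAD, ranked 9129 and 5443 against 15327 and 29135 (1.58). The best-known targets did not pass. CCN2 ranked 1138 and 1418 against 981 and 464 (-0.91), the better region of CCN1 221 and 329 against 127 and 205 (-0.74), and ANKRD1 1536 and 3818 against 2007 and 2067 (-0.25).

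The 2 MYH9 regions, beside the gene for non-muscle myosin heavy chain, were shifted in opposite directions. The first, chr22:36718949-36734559, ranked 636 and 835 against 174 and 326 (-1.61). The second, chr22:36744266-36771397, ranked 2860 and 2703 against 4352 and 9425 (1.20). Of extracellular matrix and adhesion genes, 2 of 12 shared regions (16.7%, beside 4.70% of all shared regions) went to the TC-named side (PARVA and ADAMTS12) and 1 (8.33%, beside 5.52%) to the CAMTA1-named side (TGFBI), and CDH3 was in the TC-named lists alone. Other shared regions of PARVA (shift 0.28), ADAMTS12 (-0.68) and TGFBI (-0.58) did not pass. For receptors 3 of 14 (21.4%, beside 4.70%) went to the TC-named side (OSMR, EDNRB and ADGRA2) and 2 (14.3%, beside 5.52%) to the other (TNFRSF12A and EGFR). For transcription factors 1 of 9 (11.1%) went each way, CREB3L1 and MAFK. These shares lie above those of all shared regions, but each rests on 1 to 3 regions. None of 5 regions of caveolae genes was shifted, beside 10.2% of all shared regions shifted in either direction, so 5 regions are too few to judge.

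Site shares under the file names and under the labels were compared over all 14 lists, each cut to 5721 peaks, the length of the shortest. The 2 lists with CAMTA1 in the file name held 39.7% ± 1.81 of the CAMTA1 sites (SD, n = 2), and the other 12 held 29.1% ± 7.76 (range 15.4% to 43.6%). The difference of 10.7 points had p = 0.110 and a Benjamini-Hochberg adjusted p of 0.440 in an exact two-sided permutation test over 91 ways to take 2 of 14. That test treats the 14 lists as exchangeable although they are duplicates of each construct, so its p-values can be too small. The EV-named lists, labelled TAZ4SA, held as much, 43.6% and 41.0%. The 2 lists labelled CAMTA1 held 28.2% ± 3.63 against 31.0% ± 8.71 in the others, with adjusted p = 1 in the same exact test.

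For TAZ-CAMTA1 sites, the TC-named lists held 55.3% ± 2.77 against 52.5% ± 7.69 in the other 12 (adjusted p = 1, exact permutation test), and the lists labelled TAZ_CAMTA1 52.8% ± 7.30 against 52.9% ± 7.50 (adjusted p = 1, exact permutation test). The highest shares of TAZ-CAMTA1 sites were in the YAP5SA-named lists. At TAZ4SA sites, which were not tested this way, the TAZ4SA-named lists held 54.2% and 58.3%, the lists labelled TAZ4SA (EV-named) 26.2% and 29.3%, and the YAP5SA-named lists 66.4% and 62.6%. With 13 lists cut to 20000 peaks, the CAMTA1-named lists exceeded the others at CAMTA1 sites by 18.3 points (adjusted p = 0.0513, exact permutation test). They held 71.8% and 74.4% of the sites, the 2 highest shares of the 13 lists, followed by the EV-named lists with 66.7% and 64.1%. An adjusted p of 0.0513 is the smallest that 1 of the 4 exact tests could reach alone, since the 78 ways to take 2 of 13 lists allow no exact p under 0.0128. None of the 4 tests passed at either length, and at 20000 peaks no test could have passed alone.

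**Figure D5:**
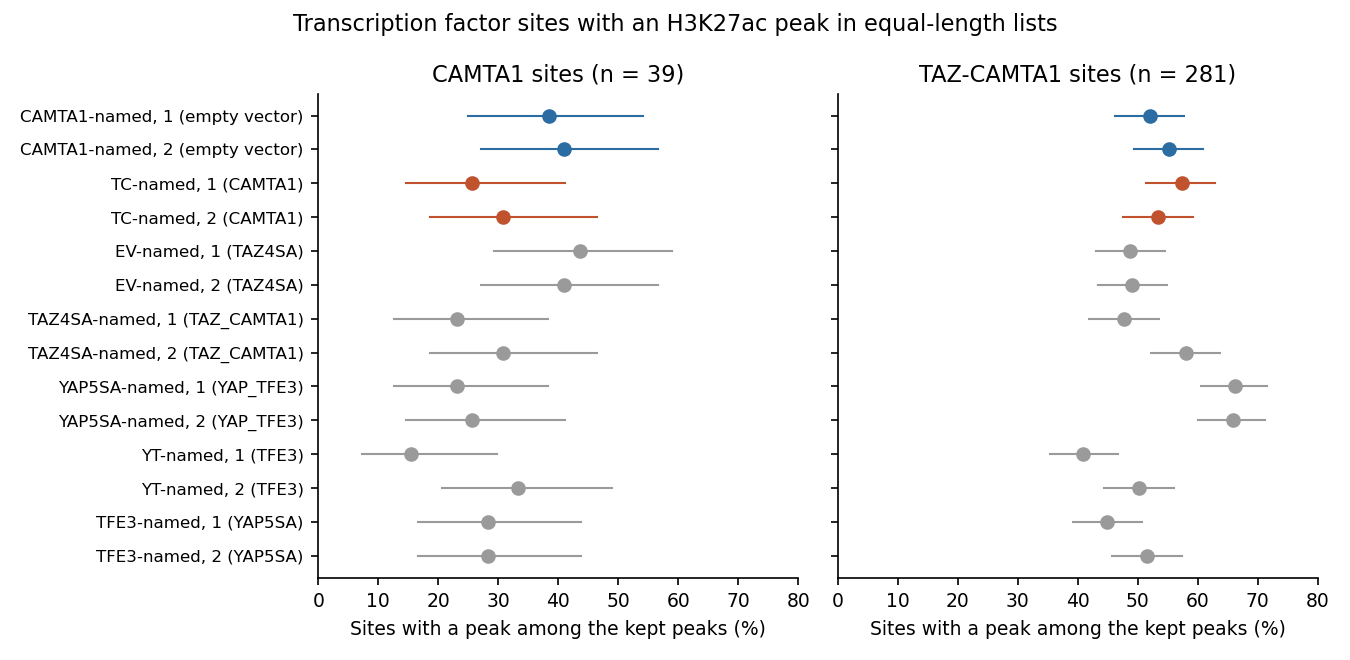
Share of the 39 CAMTA1 sites (left) and the 281 TAZ-CAMTA1 sites (right) with a peak among the 5721 best of each of the 14 lists (x axis, %), with 95% Wilson intervals that cover counting error only. CAMTA1-named lists (blue) lie at 38.5% and 41.0% on the left and TC-named lists (orange) at 25.6% and 30.8%, with the EV-named lists at 43.6% and 41.0%.

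With the constructs taken from the labels instead, the lists labelled TAZ_CAMTA1 were set against those labelled CAMTA1 at 21748 peaks each. Regions in both lists of a side alone numbered 1927 and 1439, and shifted shared regions 1038 and 1291.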

How the data were processed

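H3K27ac ChIP-seq of SW872 cells was read from 14 peak lists, 4 of them compared here, and the input libraries were not used. Per the study's methods and the submitters' processing notes, the authors trimmed reads, aligned them to GRCh37 with BWA, dropped reads that map to several places as well as greylisted intervals, and then ran MACS2 for narrow peaks. The methods describe pooling of replicates, but the deposited lists are separate for each library. The fold enrichment of each summit over background, a ratio, and the −log10 p and −log10 q of each peak are as the authors' peak caller wrote them. Peaks were ranked within a list by −log10 p, fold enrichments are given beside some ranks, and −log10 q served for an alternative threshold. None of these values was tested between lists, since read depth is unknown and differences in depth can change how many weak peaks are called.

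Peaks overlapping by at least 1 bp were merged, each region took the best rank of a list, and the constructs were taken from file names or, where stated, labels. Replicate numbers were not treated as pairs. Named regions were the 5 best-ranked exclusive regions a side, the 5 largest shifts a direction, up to 15 exclusive or shifted regions a side at CAMTA1 or TAZ-CAMTA1 sites, and genes of 7 lists that have a site. Gene names and site positions are those of the study's supplementary table, whose values were not used. The members, sites and gene lists were chosen with earlier results of these data known. Results of 1 gene and 1 gene list are not reported here. Gene annotation and sequence of the lists' build were not used here. Python 3.11.15, numpy, pandas and scipy were used, and the code was tested on simulated data.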

Additional observations from a re-analysis of the deposited data

How the results depend on the processing

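The exclusive counts depended on how deep each list was read. With the 10000 best peaks of each list they were 421 (TC-named) and 521 (CAMTA1-named), and shifted regions 412 and 436. With all peaks the exclusive counts were 777 and 2733, with a −log10 q of at least 5 they were 224 and 1452, and with absence required from all peaks of the other side 402 and 935 remained. Ranking by fold enrichment shifted 1143 regions to the TC-named and 1302 to the CAMTA1-named lists, and a shift of at least 2 left 31 and 70. By the labels, 1927 regions were in the lists labelled TAZ_CAMTA1 alone. Dropping 1 of the 4 lists, which asks for fewer lists, gave 1534 to 6091 TC-named and 2069 to 6186 CAMTA1-named exclusive regions (5429 and 4658 without TC-named replicate 1, 6091 and 2069 without TC-named replicate 2, the reverse of the order with all 4 lists), and 1183 to 1488 and 1142 to 1852 shifted ones. The largest TC-named count came without TC-named replicate 2 and the largest CAMTA1-named count without CAMTA1-named replicate 1. The peak-number difference then ranged from -0.56 to 0.054 and turned positive without TC-named replicate 2. In counts added after the data had been seen, also without each list in turn, regions at CAMTA1 sites that were exclusive or shifted numbered 0 to 1 for the TC-named and 10 to 16 for the CAMTA1-named side (0 and 10 with all lists). For TAZ-CAMTA1 sites these ranges were 28 to 44 and 26 to 44 (27 and 27), and for TAZ4SA sites 8 to 21 and 53 to 103 (8 and 59). The difference of the lists labelled TAZ_CAMTA1 at TAZ-CAMTA1 sites changed sign with sites extended by 500 bp (0.208 points) and with ranking by fold (0.593), and ran from -5.25 to 5.07 without 1 list. With a replicate block the CAMTA1-site difference stayed -19.2 points (exact permutation p = 0.5, the smallest possible with a block), and no call changed. Deviations of same-numbered lists were uncorrelated (r = -0.0124 across 16056 regions). Of 561 recomputed shifts of 82 named regions 99 moved by more than the spread between replicates. Their sign says nothing of stability, since the choice of regions fixes it when a list is left out. The causes were not tested. A peak list records only what passed a threshold, so absence from it may be a weaker signal.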

Other observations

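Exclusive regions lay closer together on the CAMTA1-named side. Of the 1624 CAMTA1-named exclusive regions 615 (37.9%) had another within 100 kb, and of the 924 TC-named ones 246 (26.6%), as values without a test and with different numbers of regions. The share of a chromosome's regions that were exclusive to the CAMTA1-named lists ran from 2.12% on chromosome 19 to 5.63% on chromosome X (3.84% of all regions), and that exclusive to the TC-named lists from 1.49% on chromosome 12 to 2.73% on chromosome 21 (2.18% of all regions).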
